A study of Mus musculus with 9 samples.

Results

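Mnd1 and Psmc3ip encode the 2 partners of a protein complex of meiotic strand exchange. They are 2 of 7117 genes named on a spotted mouse cDNA array, and each was read from 1 spot of 16128. The pair was chosen by symbol, with earlier results of these arrays known, in which Mnd1 and Psmc3ip lay on opposite sides of 0 at 15 days. The values at 12 days were known as well. The values of the pair are therefore described at both ages, and no p-value of the pair is given. Its limma estimates and SEs at 12 days are descriptions too. The samples were total RNA of whole testes of Spo11-/- mice and of wild-type mice at 15 days and at 12 days. Each array carried 1 Spo11-/- and 1 wild-type sample in different dyes. There were 4 arrays at 15 days, all with Spo11-/- RNA in Cy3, and 5 at 12 days, with Spo11-/- RNA in Cy5 on replicates 1, 4 and 5 and in Cy3 on replicates 2 and 3. The design text mentions pairs of littermates, and strain and pooling were not given in the sources used here. Replicates were numbered in order of deposit, and where arrays shared RNA the p-values measure only the spread between arrays.

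Spo11 makes the DNA double-strand breaks that start meiotic recombination. The broken ends are trimmed to single strands, on which recombinases such as Dmc1 form filaments that invade the homologous chromosome. The MND1 and PSMC3IP proteins bind each other (PSMC3IP is also called HOP2), stabilise these filaments and promote capture of the partner duplex. Mice without Psmc3ip make breaks that are not repaired, and their spermatocytes stop in meiotic prophase. Without Spo11 no breaks of this kind are made, and spermatocytes likewise fail to pass prophase.

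The promoters of the pair, from RefSeq on build GRCm38.p6, are shown because the ratios of the partners parted at 15 days. Each window runs from 250 bases before to 50 bases after the annotated start, and both genes lie on the minus strand, Mnd1 at chr3:84155737-84156036 and Psmc3ip at chr11:101095386-101095685. Capitals mark matches, on either strand, to CCGCCC (the GC box, in 35.7% of 32851 mouse promoter windows of this length) or CCAAT (the CCAAT box, in 37.4%).
Mnd1: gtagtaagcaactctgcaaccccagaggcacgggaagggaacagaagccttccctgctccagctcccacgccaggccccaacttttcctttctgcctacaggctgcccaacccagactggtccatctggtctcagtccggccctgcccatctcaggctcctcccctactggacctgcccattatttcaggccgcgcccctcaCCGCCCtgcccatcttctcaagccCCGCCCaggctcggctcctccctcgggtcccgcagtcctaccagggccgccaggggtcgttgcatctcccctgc
Psmc3ip: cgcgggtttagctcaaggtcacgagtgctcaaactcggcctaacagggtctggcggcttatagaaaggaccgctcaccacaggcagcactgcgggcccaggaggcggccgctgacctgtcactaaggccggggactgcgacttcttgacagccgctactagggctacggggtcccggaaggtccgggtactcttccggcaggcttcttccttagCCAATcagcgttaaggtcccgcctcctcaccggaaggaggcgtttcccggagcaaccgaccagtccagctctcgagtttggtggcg
The Mnd1 window held 2 GC boxes, at positions -48 and -24 from the start, and no CCAAT box. The Psmc3ip window held 1 CCAAT box, at position -36, and no GC box. Neither window held TATAAA (in 13.6% of windows) or CNCCTCAG, letters reported for the meiotic regulator STRA8 (in 7.94%). The G and C content was 65.0% in the Mnd1 window and 62.7% in the Psmc3ip window, against a median of 52.7% over all windows, and the windows held 12 and 24 CG dinucleotides. These matches describe the letters alone.

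A value is the deposited log ratio of an array, read as log2, so that a difference of 1 is a doubling. From 72.1% to 91.3% of spots had a value, and an array's values had an SD of 0.21 to 0.47. Ratios hold no level of a gene in either genotype, so the tissue could not be checked by its markers, and no spot was annotated to Spo11. In whole testis, fewer cells of a type and less RNA per cell cannot be told apart. Which genotype is on top of a ratio at 15 days could not be settled from the labels and the array correlations. Marker genes given below were not used to choose a sign, since their lists were chosen with earlier results known. With the dyes of the labels, a Cy5 over Cy3 ratio of a 15-day array is wild type over Spo11-/-. Yet those arrays correlated below 0 with the 12-day arrays of the same dye orientation (r = -0.38 to -0.33 with replicate 3 and -0.25 to -0.11 with replicate 2, across spots). With the 12-day arrays of opposite orientation r was -0.23 to 0.03, near or below 0 too. Among the 12-day arrays themselves, pairs of opposite orientation had r = 0.004 to 0.29 and pairs of the same orientation -0.13 to 0.45. Across all spots the 12-day ratios thus did not turn with the dye, so turned values rest on the labels. These correlations alone do not settle the sign at 15 days. Values at 15 days are thus given as above or below 0, and values at 12 days, turned by the dyes, as Spo11-/- over wild type on the assumption of Cy5 over Cy3.

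Mnd1 had the highest ratio of all named genes at 15 days. It lay at 2.33, 1.86, 2.13 and 3.37 on replicates 1 to 4, a mean of 2.42 ± 0.66 (SD, n = 4), or 5.36-fold. The 4 values stood far from 0, the highest on replicate 4, where Mnd1 ranked first of 6979 genes. It ranked 2nd, 6th and 3rd from the top on replicates 1, 2 and 3, and lay between 4.51 and 11.0 array SDs above 0. The spots next to it in the deposited order, 100 before and 100 after, had a median between -0.14 and 0.07 on these arrays. Neighbouring spots are meant in this sense throughout, since places on the slide were not used. RefSeq also lists a transcribed pseudogene, Mnd1-ps, whose RNA could bind the same cDNA. No spot was annotated to it, and its part in the signal was not tested.

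At 12 days the deposited sign of Mnd1 changed with the dye of the Spo11-/- RNA. It was 1.39, 1.96 and 1.87 on replicates 1, 4 and 5, with Spo11-/- RNA in Cy5, and -0.64 and -1.79 on replicates 2 and 3, with Spo11-/- RNA in Cy3. The groups of opposite dye did not overlap, and Mnd1 was the highest gene on replicates 4 and 5 and the lowest on replicate 3. Turned by dye, the 5 values ran from 0.64 to 1.96 with a median of 1.79. The limma fit with a dye intercept gave 1.48 (SE 0.18) for Spo11-/- over wild type, higher in 5 of 5 arrays, and a dye intercept of 0.26. Over all 10075 features tested at 12 days, Mnd1 and Psmc3ip included, none passed a limma adjusted p under 0.05 (0%). An unadjusted p under 0.05 was found for 269. The coefficient was the largest of 6237 genes in either direction. Of 5616 genes with a value on all 5 arrays, 107 followed the dye with a turned value above 0 and 152 with one below 0. Mnd1 is one of the genes above 0, so a sign that follows the dye is not particular to it, and these counts were not set against chance. The numbers in the array titles fall into a lower and a higher range. Within the lower range (replicates 1 and 2, 1 of each orientation) the effect of Mnd1 was 1.01, and within the higher range (replicates 3 to 5) it was 1.85.

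Psmc3ip lay below 0 at 15 days, opposite to its partner. Its ratios were -1.45, -1.17, -1.28 and -1.08 on replicates 1 to 4, a mean of -1.25 ± 0.16 (SD, n = 4), or 2.37-fold. These 4 values were closer together than those of Mnd1. Psmc3ip ranked 15th, 58th, 33rd and 10th from the bottom on the 4 arrays, and its mean was the 19th lowest of 6958 genes.

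At 12 days Psmc3ip followed neither the dye nor 1 sign. It lay at -0.35, 0.25 and 0.16 on replicates 1, 4 and 5 (Spo11-/- RNA in Cy5) and at -0.20 and 0.92 on replicates 2 and 3 (Spo11-/- RNA in Cy3). The groups of opposite dye overlapped, and replicate 3 alone stood far from 0, where Psmc3ip was the 20th highest of 6839 genes. The limma estimate for Spo11-/- over wild type was -0.17 (SE 0.18), below 0 on 2 of 5 turned arrays, and it was 0.11 without replicate 3. Within the lower range of titles the effect was -0.075, and within the higher range -0.36. On 12-day replicate 5, where following spots correlated most (r = 0.65), the neighbouring spots had a median of -0.47, and Psmc3ip lay 0.63 above it.

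The gap between the partners was wide at 15 days. Mnd1 minus Psmc3ip was 3.78, 3.03, 3.41 and 4.45 on replicates 1 to 4, a mean of 3.67 ± 0.60 (SD, n = 4), or 12.7-fold. A shift common to all spots of an array cancels in this difference. Turned by dye, the difference at 12 days was 1.74, 0.44, 2.71, 1.71 and 1.71 on replicates 1 to 5. All 5 were above 0, nearly equal on the 3 arrays with Spo11-/- RNA in Cy5 and far apart on the other two. The difference of the fitted effects at 12 days was 1.65, mostly that of Mnd1.

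**Figure D1:**
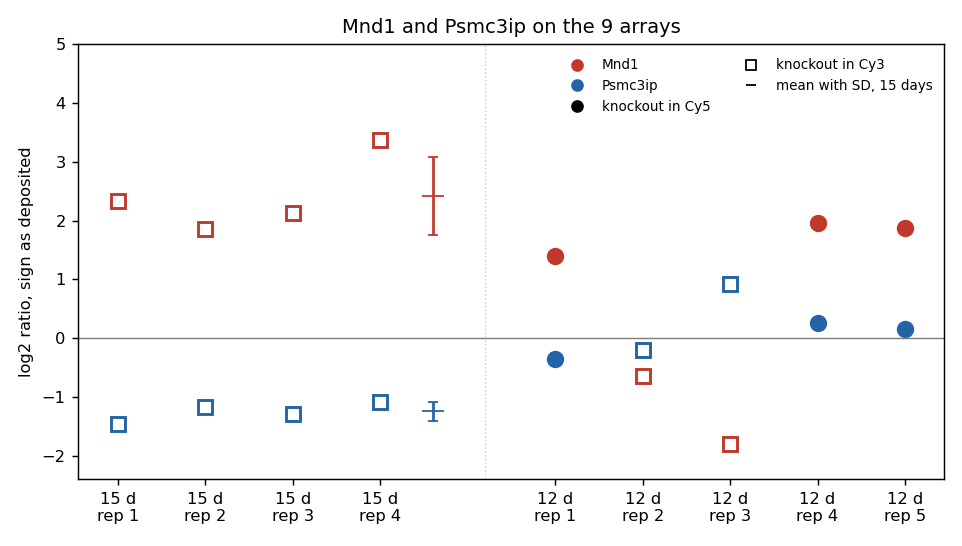
Deposited log2 ratios (vertical axis) of Mnd1 (red) and Psmc3ip (blue) on each of the 9 arrays (horizontal axis, 15 days left, 12 days right), with filled circles for Spo11-/- RNA in Cy5 and open squares for Cy3. Bars beside the 15-day points are the mean and SD (2.42 ± 0.66 and -1.25 ± 0.16). Mnd1 lies above 0 at 15 days and changes sign with the dye at 12 days, and Psmc3ip lies below 0 at 15 days and between -0.35 and 0.92 at 12 days.

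The 15-day arrays had the same orientation as 12-day replicates 2 and 3, yet both genes had opposite mean signs on them. Mnd1 averaged 2.42 at 15 days and -1.22 on those 2 arrays, and Psmc3ip -1.25 and 0.36. With the labels' dyes and Cy5 over Cy3 at both ages, the 15-day minus the 12-day value of Spo11-/- over wild type was -3.64 for Mnd1 and 1.605 for Psmc3ip. With the 15-day sign turned, it was 1.21 for Mnd1 and -0.885 for Psmc3ip. Under that reading Mnd1 was above 0 at both ages and Psmc3ip below 0 at 15 days. These differences set 4 arrays against 2 and were not tested, since the pair was chosen with both ages in view. A gene's own dye effect enters the values at 15 days, where the dyes were not swapped.

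**Figure D2:**
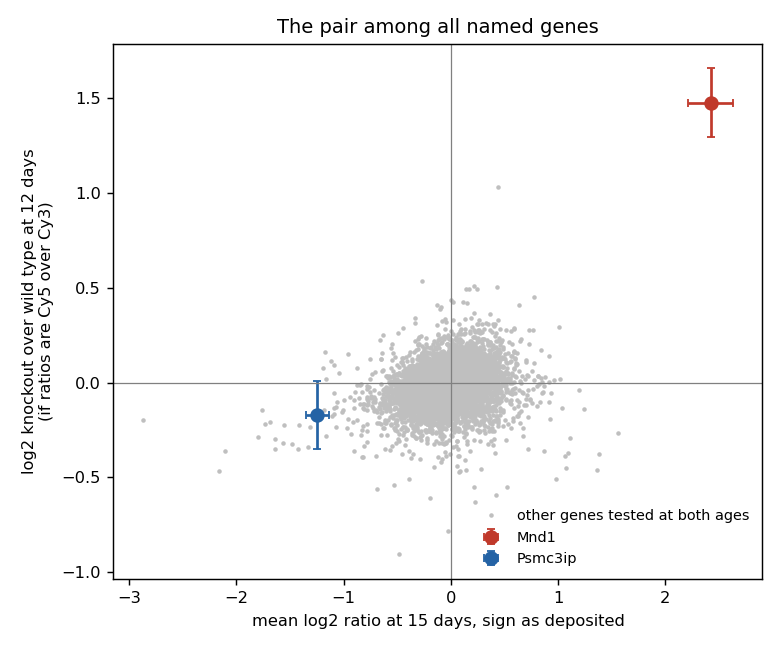
Mean deposited log2 ratio at 15 days (horizontal axis) against the fitted log2 ratio of Spo11-/- over wild type at 12 days (vertical axis, assuming Cy5 over Cy3) for the genes tested at both ages (grey), with Mnd1 (red) and Psmc3ip (blue) and their limma SE bars. Mnd1 stands apart at 2.42 and 1.48, whereas Psmc3ip lies at -1.25 and -0.17.

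Of 50 other genes listed for strand invasion, 27 were measured at 15 days, of which Exo1 passed above 0 (1 gene) and 4 passed below 0 (limma adjusted p under 0.05 over all features). Among all 6958 named genes 4.04% passed above and 7.20% below 0, and among all 12198 features, unnamed spots included, 7.05% and 5.37%. The median of the list was -0.10, against -0.02 over all named genes and 0.02 over all features. The list was chosen with earlier results known. All tests at 15 days hold no dye term, since the dyes were not swapped, so a gene's own dye effect can pass too. The meiotic recombinase gene Dmc1, on whose product the pair acts, was not analysed here.

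By role, Rad54b, a DNA translocase of recombination, lay at -0.43 (SE 0.10, limma adjusted p = 0.0259) and Swi5, whose product pairs with that of Sfr1 to assist strand exchange, at -0.51 (SE 0.14, 0.0464). Sfr1 itself, named after its value was seen, lay at 0.01 (SE 0.10), and Swi5 lay at -0.02 on replicate 4. The difference between Swi5 and Sfr1 was not tested. Xrcc3 (-0.23), which acts in homologous recombination, did not pass. Brca2, which loads recombinase onto DNA, lay at -0.53, -1.0, -0.84 and -0.57 on replicates 1 to 4, a mean of -0.73 (SE 0.11, limma adjusted p = 0.00694). Hsf2bp, which encodes a meiotic partner of Brca2, lay at -0.47 (SE 0.11, 0.0286). Brca2 was below 0 on all 4 arrays and was the only gene of the list to pass without each array in turn, with adjusted p of 0.013 to 0.039. The single-strand binding genes Rpa1 (0.13), Rpa2 (-0.10) and Rpa3 (-0.03) lay near 0, and Rad52 (0.42, SE 0.21) varied from -0.14 to 1.27. Among genes of resection and unwinding, the nuclease gene Exo1 lay at 0.45 (SE 0.10, adjusted p = 0.0262), and Rmi1 (-0.36) and Rtel1 (-0.28) did not pass. Exo1 no longer passed without replicate 2, 3 or 4, Hsf2bp without the same arrays, Swi5 without replicate 1, 2 or 3, and Rad54b without any 1 array. At 12 days 23 genes of the list were tested, none passed, and their estimates ran from -0.26 to 0.41 (median 0.03).

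Genes listed for early meiotic prophase, not all of them restricted to that stage, passed on both sides of 0. Of 19 measured at 15 days, 1 passed above 0 and 3 below, against 4.04% above and 7.20% below among all named genes, and their median was -0.10. Mei1, needed for break formation, lay at 0.63, 0.61, 1.07 and 0.62 on replicates 1 to 4 (mean 0.73, SE 0.11, limma adjusted p = 0.00717). Syce1 and Sycp1, which encode central element and transverse filament proteins of the synaptonemal complex, lay at -0.67 (SE 0.12, 0.0122) and -0.48 (SE 0.10, 0.0214). The cohesin gene Smc3 lay at -0.53 (SE 0.10, 0.0132). Mei1 and Syce1 passed without each array in turn, while Smc3 did not without replicate 3 and Sycp1 not without replicate 1, 2 or 3. The axis gene Sycp3 lay at 0.23 (SE 0.17) and the meiotic cohesin genes Rec8 and Smc1b at -0.11 and -0.08. None of the 19 passed at 12 days, where they ran from -0.28 to 0.20.

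Psmc3ip owes its symbol to the binding of its product to that of Psmc3, an ATPase of the proteasome base. Psmc3 lay at -0.46 (SE 0.12, limma adjusted p = 0.0393) at 15 days, and it did not pass without replicate 2, 3 or 4. The other measured ATPase genes were below 0 as well, Psmc5 at -0.35, Psmc2 at -0.33 and Psmc1 at -0.24, and did not pass. At 12 days the 4 genes lay between -0.11 and 0.03.

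**Figure D3:**
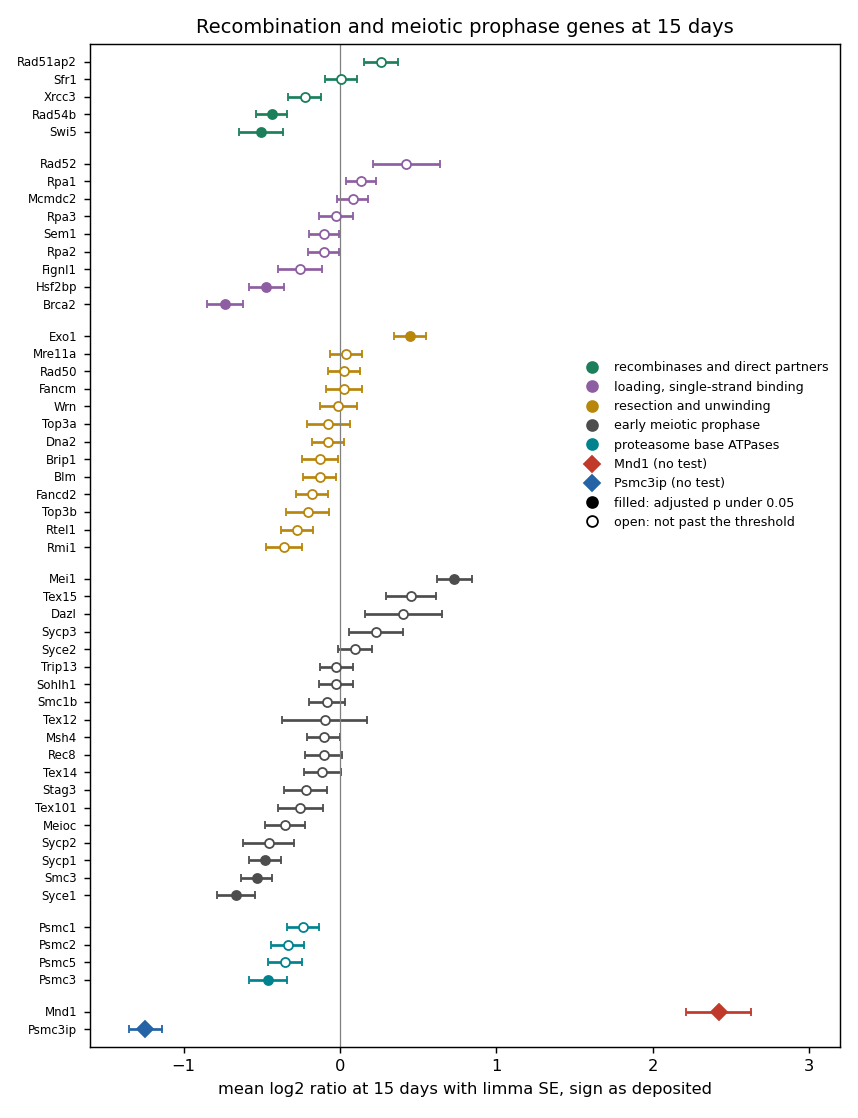
Mean deposited log2 ratio at 15 days (horizontal axis) with limma SE for each measured gene of the strand invasion, early meiotic prophase and proteasome ATPase lists, and for the pair (diamonds, no test). Filled points passed an adjusted p under 0.05. The listed genes lie between -0.74 and 0.73, inside the interval set by Psmc3ip at -1.25 and Mnd1 at 2.42.

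The genes most like each partner over the 9 arrays were different genes. Likeness was Pearson's r between deposited ratios over 5380 other genes with a value on every array, given as a description, since arrays of 1 age share a design and an orientation. For Psmc3ip these were B9d1, a gene of the ciliary transition zone (r = 0.98), the calmodulin gene Calm2 (0.98), the intraflagellar transport gene Ift122 (0.98), the radial spoke gene Rsph1 (0.97) and Haus5, of the augmin complex (0.97). B9d1 lay at -1.45, -1.56, -1.46 and -1.20 at 15 days and at 0.74 on 12-day replicate 3, its highest value, as 0.92 was for Psmc3ip. All 5 passed below 0 at 15 days, with means from -1.73 (Rsph1) to -0.52 (Haus5), and Haus5 did not without replicate 1, 2 or 3. Their side of 0 was largely fixed by the choice, since likeness used the same 15-day values. Among all named genes 7.20% passed below 0. For Mnd1 the 5 genes were Phf20 (r = 0.93), Rrm2b (0.91), Slc6a8 (0.90), Eif2s3y (0.89) and Zhx3 (0.89). Their ratios were small, with 15-day means from 0.08 (Rrm2b) to 0.59 (the creatine transporter gene Slc6a8), so none approached the size of Mnd1. Of these Slc6a8 and Eif2s3y passed above 0 at 15 days, a side likewise set in part by the choice. Spearman's rho kept 1 of the 5 genes for each partner, and turning the ratios by the labels' dyes kept 2 for Psmc3ip and 1 for Mnd1. The partners themselves correlated at r = -0.70 as deposited and at -0.87 turned.

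**Figure D4:**
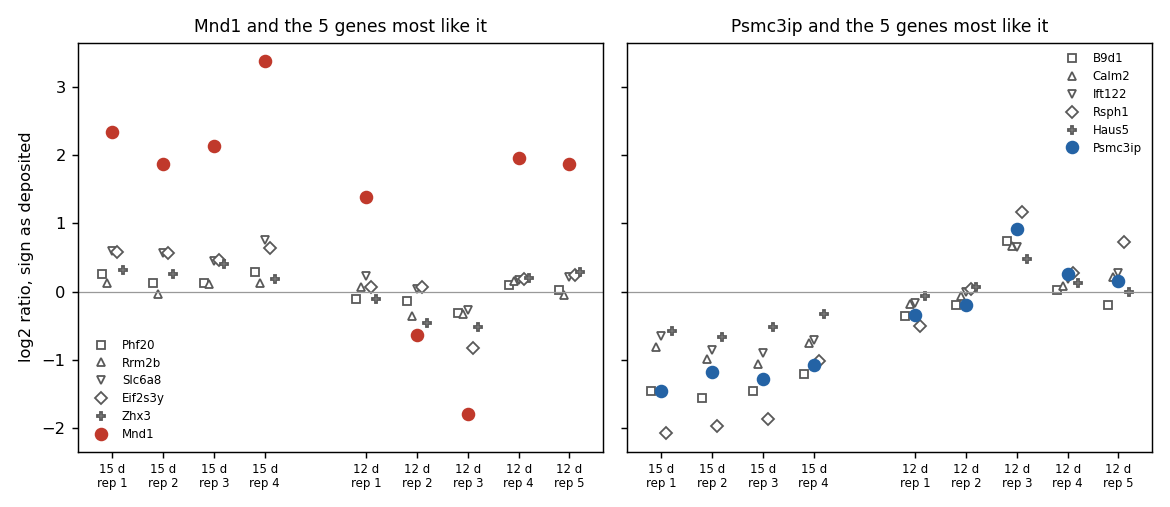
Deposited log2 ratios (vertical axis) of Mnd1 (left) and Psmc3ip (right) in colour and of the 5 genes most like each (open or grey symbols) on each array (horizontal axis). The genes most like Psmc3ip lie below 0 at 15 days and highest on 12-day replicate 3, as Psmc3ip does (0.92), whereas those most like Mnd1 stay between -0.82 and 0.76.

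Most measured markers listed for pachytene spermatocytes passed on the side of Psmc3ip at 15 days. Of 8 measured pachytene spermatocyte markers, 5 passed below 0 and none above (median -0.87). They were the glucose transporter gene Slc2a3 (-2.16), Rsph1 (-1.73), Lyar (-1.56), Ybx3 (-1.16) and Ccnb1ip1 (-0.58). Sycp3, also on this list, was its only measured gene above 0 (0.23, SE 0.17) and did not pass. Among all named genes 4.04% passed above and 7.20% below 0, and among all features 7.05% and 5.37%. The marker lists were chosen with earlier results of these arrays known, so their counts are a description. The median of the 8 was -0.84, -1.19, -1.02 and -0.41 on 15-day replicates 1 to 4, and -0.02, -0.02, 0.80, 0.02 and 0.41 on 12-day replicates 1 to 5. These medians keep the deposited sign, and the highest at 12 days was on replicate 3, with Spo11-/- RNA in Cy3. Psmc3ip was highest and Mnd1 lowest on that array as deposited. Turned by dye, Mnd1 was 1.79 there, the median of its 12-day values. Of 8 spermatogonial markers 3 passed above 0 and none below (median 0.35): Etv5 (1.20), Ccnd1 (0.41) and Uchl1 (0.36). With the labels' dyes and Cy5 over Cy3, the passing pachytene markers would be higher in Spo11-/- testes and the passing spermatogonial ones lower. With the 15-day sign turned, both would be the other way round, and neither reading was tested. None of 10 Sertoli cell markers passed (median 0.05), and array medians ran from -0.05 to 0.17. Of 5 Leydig cell markers Nr5a1 passed at 0.43. Of 7 peritubular and fibroblast markers Col1a1 (0.41) and Lum (-0.57) passed on opposite sides, as did Cdh5 (0.78) and Lyz2 (-0.61) of 5 macrophage, endothelial and blood markers. The only measured gene of the spermatid list, Txndc2, passed at 0.81. It had no value on replicate 1 and lay at 0.29, 1.23 and 0.92 on replicates 2 to 4, so this 1 gene is no measure of spermatids. The part of cell numbers in the values of the pair was not tested.

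None of the measured genes beside the pair on the chromosomes passed at 15 days. Among all named genes 4.04% passed above and 7.20% below 0, so with 10 neighbours per partner a count of 0 is near those shares. Around Mnd1 on chromosome 3, the nearest 5 measured genes on each side, from Pdgfc to Sh3d19, lay between -0.36 and 0.46 (10 genes). Around Psmc3ip on chromosome 11, those from Ghdc to Coa3 lay between -0.355 and 0.18 (10 genes). The closest were Tmem131l (0.16) and Fhdc1 (0.34) beside Mnd1, and Mlx (-0.02) and Retreg3 (-0.18) beside Psmc3ip. At 12 days the 9 tested neighbours of Mnd1 ran from -0.20 to 0.28, and the 9 of Psmc3ip from -0.17 to 0.18.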

How the data were processed

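The authors deposited log ratios of 2-colour spotted cDNA arrays, taken here to be on the log2 scale. The design text states that arrays were scanned with GenePix, spots flagged in its software and ratios median centred by the authors. The log base, background correction and ratio direction were not given there, and no intensities were used. The annotation gave 1 gene for 9604 spots, several for 213 and none for 6311. Entrez IDs matched RefSeq (GRCm38.p6) for 98.9% of spots with 1 gene. Spots of a gene were averaged after centring each array again. Tests, all two-sided, used lmFit and eBayes of limma 3.58.1 (R 4.3.3) with Benjamini-Hochberg adjustment: at 15 days the mean against 0 (at least 3 values), at 12 days a knockout coefficient with a dye intercept (at least 4 values, both orientations). No dye term could be fitted at 15 days, where all arrays had the same orientation. The tests were checked on simulated arrays. Other tables were made in Python 3.11.15.

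Members and lists were chosen with earlier results of these data known. Named were the members, list genes that passed, the 3 of largest absolute mean per pathway list, the 5 genes most like each member, and passing markers. Sfr1, Xrcc3, Rpa1, Rpa2, Rpa3, Sycp3, Rec8, Smc1b, Psmc1 and some chromosomal neighbours are also named, chosen after their values were seen. Alternatives covered centring, scaling, quantile normalization, neighbouring spots, single probes, missing values, robust eBayes, thresholds, a SAM-type test, dye terms, title ranges, direction and left-out arrays. Some items are not reported here.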

Additional observations from a re-analysis of the deposited data

Results flagged for a closer look

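Mnd1 had opposite signs at the 2 ages when all ratios are read as Cy5 over Cy3. Every 15-day array was then below 0 for Spo11-/- over wild type (mean -2.42, n = 4) and every 12-day array above 0 (mean 1.53, n = 5). This difference was not tested, and with the 15-day sign turned it is not seen.

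In 5 of 76 sets of 4 or 5 arrays, for 41 named genes, 1 array stood far from the others by Dixon's criterion, which chance does in about 1 in 20. Mei1 lay at 1.07 on 15-day replicate 3, against 0.61 to 0.63 on the other arrays. Etv5 lay at 1.96 on the same array, against 0.85 to 1.02. Rrm2b lay at -0.035 on 15-day replicate 2, against 0.115 to 0.125. Turned by dye, Slc2a3 lay at -2.36 on 12-day replicate 3, against -0.17 to 0.61, and Hsf2bp at 0.538 on 12-day replicate 5, against -0.17 to 0.02. Neither partner had such an array at either age.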

How the results depend on the processing

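The 15-day value of Mnd1 was within 1 SD of 2.42 under all 9 alternatives (2.11 to 2.61 with 1 array left out), as was that of the pair's difference (3.41 to 3.88). Psmc3ip at 15 days (-1.30 to -1.18 with 1 array left out) moved beyond 1 SD with arrays scaled to equal spread alone, at -1.05. At 12 days Mnd1 stayed above 0 under all 17 alternatives, with 1.19 to 1.76 when 1 array was left out and 0.56 when not turned by dye. Psmc3ip at 12 days ran from -0.45 to 0.11 with 1 array left out, above 0 without replicate 3, and was 0.16 when not turned by dye. The 12-day difference of the pair ran from 1.08 to 2.21 with 1 array left out and was 0.40 when not turned. The difference between ages was -4.21 to -3.06 for Mnd1 and 1.045 to 2.165 for Psmc3ip with 1 array left out, and turned round with the 15-day sign, to 1.21 and -0.885. No feature passed at 12 days in any fit.

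Of the 15-day counts, features passing were 1515, or 357 to 1021 with 1 array left out, 372 by the SAM-type test at a 1% false discovery rate and 1.5-fold, and 242 at an adjusted p under 0.01 with 1.5-fold. Strand invasion genes above 0 were 0 to 1 with 1 array left out, 2 with single probes and 0 after subtracting neighbouring spots, by the SAM-type test and at the stricter threshold. Those below 0 were 1 to 2 with 1 array left out, 6 after subtracting neighbouring spots, and 1 by the SAM-type test and at the stricter threshold. Early prophase genes after subtracting neighbouring spots were 2 above and 4 below 0, and those below 0 were 1 to 3 with 1 array left out, 1 by the SAM-type test and 0 at the stricter threshold. The causes were not tested. No paired analysis was possible because each array already is 1 pair, and its number is only an order of deposit. With no intensities, signal over background is unknown.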
